A study of Mus musculus with 12 samples.

Results

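Heme breakdown and iron handling in the liver were followed through 8 genes, chosen by name: Hmox1, Blvra and Blvrb (heme degradation), Slc48a1 (heme transport), Fth1 (iron storage), Slc40a1 (iron export), Hamp (hepcidin) and Alas1 (heme synthesis). They were read by 13 probe sets that named 1 of these genes and no other, among 18193 genes measured on the arrays. The brightest probe set, by its mean over the 12 arrays, stands for each gene, and any other is given beside it. Liver RNA of male mice had been read on 12 arrays, 1 sample each, in 4 groups of 3.

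The first group was Nrf2 null mice given CDDO-Im, an imidazolide of the triterpenoid CDDO that is known as an activator of Nrf2. The second was Nrf2 null mice given vehicle, the third wild type mice given CDDO-Im and the fourth wild type mice given vehicle. Nrf2 is the transcription factor encoded by Nfe2l2. CDDO-Im was given by gavage at a dose that the labels write as 30 uM/kg (0 for vehicle), and the time in all groups was 6 hours. The labels used here give neither strain nor age, and do not say how or in which cells the gene was inactivated. Nothing in them says that the 3 arrays of a group are 3 animals, and p-values therefore reflect only how these samples scatter. A bracketed digit 2 of unstated meaning stands in the title of each of the 6 vehicle arrays, and its effect and that of the compound cannot be told apart.

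Heme oxygenase opens the heme ring and releases iron, carbon monoxide and biliverdin, which the biliverdin reductases turn into bilirubin for excretion in bile. Freed iron is held in ferritin or leaves the cell through ferroportin, and the liver hormone hepcidin has ferroportin degraded. Nrf2 is known to bind antioxidant response elements at several of these genes, Hmox1, Fth1 and Blvrb among them, and Alas1 catalyses the rate-limiting step of heme synthesis in hepatocytes.

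In wild type livers, Blvrb, Slc48a1 and Fth1 rose with CDDO-Im, by 4.72-fold, 2.59-fold and 1.34-fold. In Nrf2 null livers Blvrb alone of the 8 genes passed the test, with a rise of 1.56-fold, and that call did not hold in every single omission. Alas1 gave 1.99-fold and Fth1 1.16-fold there, and neither passed (limma, adjusted p = 0.0614 and 0.0791). In wild type livers Alas1 gave 2.02-fold and Hmox1 1.50-fold, and neither passed (limma, adjusted p = 0.101 and 0.0856). The effects of CDDO-Im on Blvrb and on Slc48a1 were smaller in Nrf2 null than in wild type livers. For Slc48a1 this call was near the threshold (limma, adjusted p = 0.0364), and most single omissions ended it. For Hmox1, Slc40a1, Alas1, Hamp and Blvra no difference passed the test in any comparison.

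Values are log2 intensities as deposited, so a difference of 1 is a doubling of signal. Differences are given with the standard error (SE) of a limma model fitted to all 12 arrays, and a gene is called where its p, adjusted over all 18193 genes (Benjamini-Hochberg), is under 0.05. The number of arrays limits the precision. Single omissions, given below, leave out 1 of the 12 arrays at a time. Where that array is of a group outside the comparison, the difference stays the same. Only the shared spread, and through it the p-value, can then change, so such omissions are a weaker check. In whole tissue, fewer cells of a type and less RNA per cell cannot be told apart.

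Nfe2l2, the gene that is null by label, read 4.44 to 4.96 on the 6 Nrf2 null arrays and 8.37 to 9.14 on the 6 wild type arrays. Its second probe set read 4.63 to 5.19 on all 12 arrays and did not separate the genotypes. Array medians lay between 5.77 and 5.83, and albumin (Alb), the main secreted protein of hepatocytes, read 14.19 to 14.36 everywhere. Wild type vehicle replicate 3 stood apart: its mean correlation with its group was 0.986, the lowest of the 12. The mean of 9 pancreatic acinar cell markers was 10.70 there, 9.03 in Nrf2 null vehicle replicate 2 and 6.36 to 6.68 on the other 10 arrays. The 11 Kupffer cell and macrophage markers averaged 8.15 to 8.24 in Nrf2 null CDDO-Im arrays, 7.50 to 8.22 in Nrf2 null vehicle arrays, 8.10 to 8.68 in wild type CDDO-Im arrays and 7.83 to 8.61 in wild type vehicle arrays. The 8 measured erythroid markers averaged between 6.08 and 6.39 on every array.

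**Figure D1:**
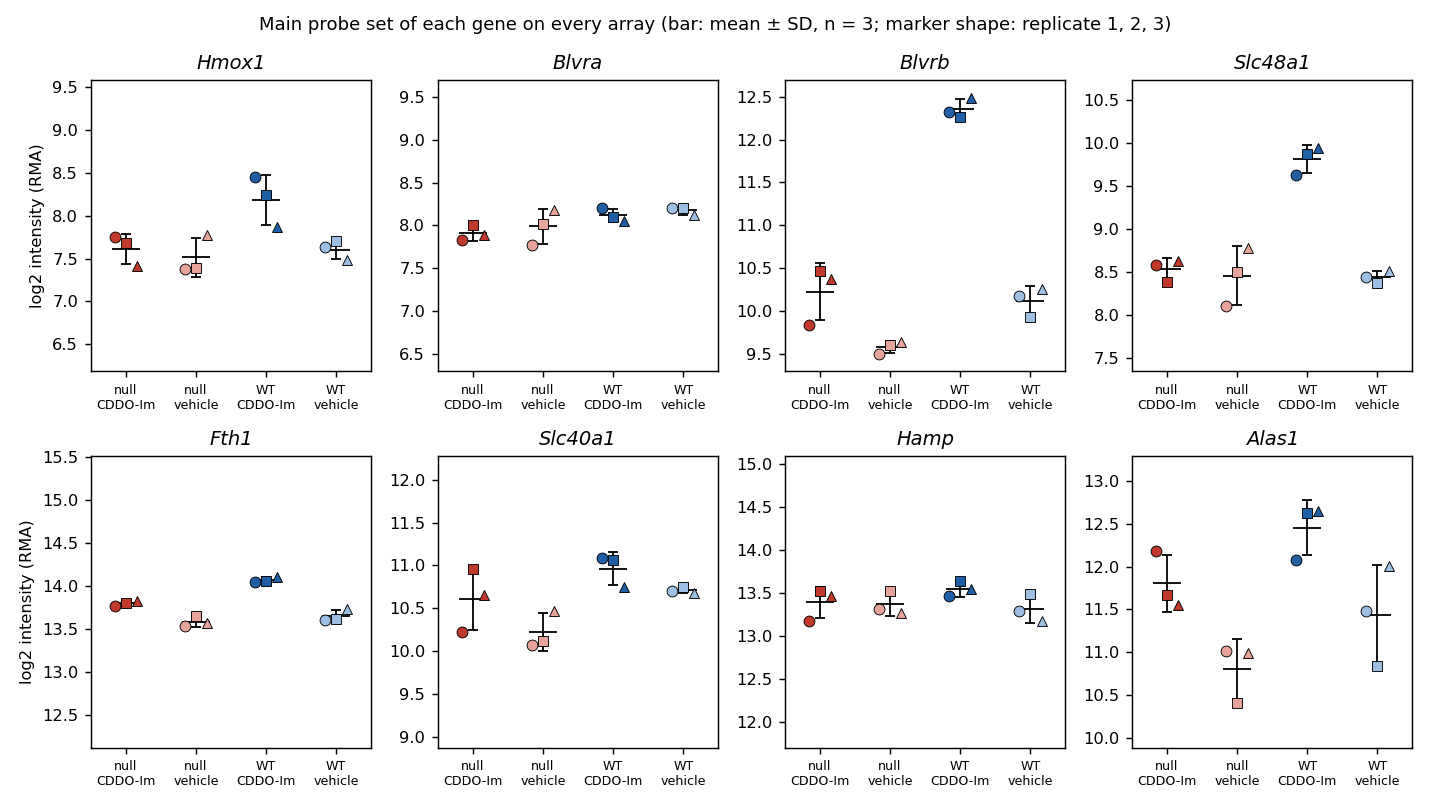
Log2 intensity of the main probe set of each of the 8 genes (y axis, the same span in every panel) on each array of the 4 groups (x axis); symbols are arrays, bars are mean ± SD (n = 3). Blvrb, Slc48a1, Hmox1 and Fth1 in wild type CDDO-Im arrays lie above every other array of the same gene, while the groups of Hamp overlap throughout.

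Hmox1 (probe set 1448239_at, Entrez Gene 15368) encodes the inducible heme oxygenase, which carries out the first step of heme degradation. It read 7.75, 7.68 and 7.41 in Nrf2 null CDDO-Im livers, against 7.38, 7.39 and 7.78 in Nrf2 null vehicle livers. It read 8.45, 8.24 and 7.87 in wild type CDDO-Im livers, against 7.63, 7.70 and 7.48 in wild type vehicle livers. The 3 wild type CDDO-Im arrays were thus the highest of the 12, while the Nrf2 null groups overlapped each other and the wild type vehicle group. The difference for CDDO-Im against vehicle was 0.10 ± 0.154 (SE) in Nrf2 null livers and 0.58 ± 0.154 in wild type livers, or 1.50-fold in wild type. Neither passed the test (limma, adjusted p = 0.815 and 0.0856). The 95% interval of the wild type difference ran from 0.24 to 0.91. Without wild type CDDO-Im replicate 3, the lowest of its group, the difference was 0.74 and passed (adjusted p = 0.0477). Nrf2 null against wild type under CDDO-Im, which shares the wild type CDDO-Im arrays with that comparison, gave -0.57 (adjusted p = 0.11), or -0.73 without the same array (adjusted p = 0.0449). The difference between the effects was -0.48 (95% interval -0.96 to -0.01, adjusted p = 0.695).

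Blvra (1428580_at, Entrez Gene 109778) encodes biliverdin reductase A, the enzyme that makes bilirubin IXα in adult tissues. It read 7.83 to 8.01 in Nrf2 null CDDO-Im livers, 7.77 to 8.18 in Nrf2 null vehicle livers, 8.06 to 8.20 in wild type CDDO-Im livers and 8.12 to 8.21 in wild type vehicle livers. Neighbouring groups in that order of means overlapped. The difference for CDDO-Im was -0.08 in Nrf2 null livers (95% interval -0.30 to 0.13) and -0.06 in wild type livers (-0.27 to 0.16). Under CDDO-Im every Nrf2 null array lay below every wild type array, by 0.21 on average, and this did not pass (adjusted p = 0.463).

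Blvrb (1451386_at, Entrez Gene 233016) encodes biliverdin reductase B, also known as flavin reductase, which reduces flavins and the biliverdin isomers made in fetal life. Blvrb read 9.84, 10.47 and 10.37 in Nrf2 null CDDO-Im livers, against 9.51, 9.60 and 9.64 in Nrf2 null vehicle livers. It read 12.33, 12.26 and 12.49 in wild type CDDO-Im livers, against 10.18, 9.93 and 10.25 in wild type vehicle livers. Within each genotype every CDDO-Im array was higher than every vehicle array, and the wild type CDDO-Im arrays were well apart from the other 9. Blvrb rose by 0.64 ± 0.145 in Nrf2 null livers (1.56-fold, limma, adjusted p = 0.0263) and by 2.24 ± 0.145 in wild type livers (4.72-fold, adjusted p = 6.27e-06). By p-value it stood at place 10 of 18193 genes in wild type and at place 582 in Nrf2 null livers. The effects differed by -1.60 ± 0.205 (adjusted p = 0.00775). Under CDDO-Im, Blvrb was 4.39-fold lower in Nrf2 null than in wild type livers, a difference of -2.13 (adjusted p = 9.05e-06). With vehicle the difference was -0.54, with every Nrf2 null array below every wild type array, and did not pass (adjusted p = 0.143). The wild type call, the call between genotypes under CDDO-Im and the interaction held with any 1 array left out. The Nrf2 null call did not: the adjusted p was 0.096 and 0.114 without Nrf2 null CDDO-Im replicates 2 and 3, and 0.0999 and 0.0738 without Nrf2 null vehicle replicates 1 and 2. The vehicle difference passed without Nrf2 null CDDO-Im replicate 1, which changes only the shared spread (adjusted p = 0.0438).

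The 250 bases before the start sites of both reductases are shown because one gene rose with CDDO-Im and the other did not. They were taken from RefSeq, build GRCm38.p6, on the plus strand, at chr2:127070407-127070656 for Blvra and chr7:27447728-27447977 for Blvrb. Capitals mark the antioxidant response element core, here TGACNNNGC on either strand.
Blvra: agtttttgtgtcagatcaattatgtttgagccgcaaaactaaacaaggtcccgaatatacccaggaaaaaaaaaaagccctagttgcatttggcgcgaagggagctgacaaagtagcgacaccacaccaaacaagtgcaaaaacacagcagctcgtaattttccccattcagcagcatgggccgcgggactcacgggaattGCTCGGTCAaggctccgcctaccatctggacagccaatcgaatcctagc
Blvrb: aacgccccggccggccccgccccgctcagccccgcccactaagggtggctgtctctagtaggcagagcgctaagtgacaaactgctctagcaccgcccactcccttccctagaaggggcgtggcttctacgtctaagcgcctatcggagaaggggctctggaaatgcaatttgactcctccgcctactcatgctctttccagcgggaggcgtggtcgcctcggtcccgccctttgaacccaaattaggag

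RefSeq windows were found for 5 of the 8 genes (8 windows of 250 bases before to 50 after a start site), and Hmox1, Slc40a1 and Slc48a1 were not among them. The antioxidant core was in 12.4% of all 32851 mouse windows. Among the 8 windows it occurred once, in Blvra, read on the opposite strand as TGACCGAGC from 49 to 41 bases before the start site. Neither of 2 Blvrb windows and neither of 2 Fth1 windows held it. A match describes letters only, and no match says only that these letters are not in these windows.

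Slc48a1 (1450409_a_at, Entrez Gene 67739) encodes HRG1, which carries heme across the membranes of lysosomes and phagosomes. It read 8.59, 8.39 and 8.63 in Nrf2 null CDDO-Im livers, against 8.10, 8.50 and 8.78 in Nrf2 null vehicle livers. It read 9.63, 9.87 and 9.94 in wild type CDDO-Im livers, against 8.44, 8.37 and 8.51 in wild type vehicle livers. The wild type CDDO-Im arrays stood alone at the top, and the other 3 groups overlapped one another. Slc48a1 rose by 1.37 ± 0.147 in wild type livers (2.59-fold, limma, adjusted p = 0.000421). In Nrf2 null livers the difference was 0.08, with a 95% interval from -0.24 to 0.40 (adjusted p = 0.848). Under CDDO-Im it was 2.43-fold lower in Nrf2 null than in wild type livers (-1.28, adjusted p = 0.000781), and with vehicle the difference was 0.02 (-0.30 to 0.34). The second probe set (1450410_a_at) rose by 1.11 in wild type livers (adjusted p = 0.00226 over all probe sets). It gave 0.24 in Nrf2 null livers (adjusted p = 0.478).

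The effects of CDDO-Im on Slc48a1 differed by -1.30 ± 0.208 between the genotypes, near the threshold (adjusted p = 0.0364). This call was lost when any of 8 single arrays was left out: Nrf2 null CDDO-Im replicates 1, 2 and 3, Nrf2 null vehicle replicate 2, wild type CDDO-Im replicates 2 and 3, and wild type vehicle replicates 1 and 2. The difference then lay between -1.34 and -1.22 and the adjusted p between 0.0717 and 0.136. The second probe set gave -0.88 (adjusted p = 0.261). Slc48a1 is known to be abundant in macrophages that take up red cells. Of the 11 Kupffer cell and macrophage markers none was called with CDDO-Im in either genotype, and Marco, a macrophage scavenger receptor, was lower in Nrf2 null than in wild type livers under CDDO-Im. That difference was -1.32 (adjusted p = 0.0307), and 4 of 12 single omissions ended the call (adjusted p up to 0.0993, without Nrf2 null CDDO-Im replicate 3). No other of the 11 Kupffer cell and macrophage markers was called there, and their median difference was -0.05, against 0.01 over all genes. The part of these cells in the Slc48a1 values was not tested.

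**Figure D2:**
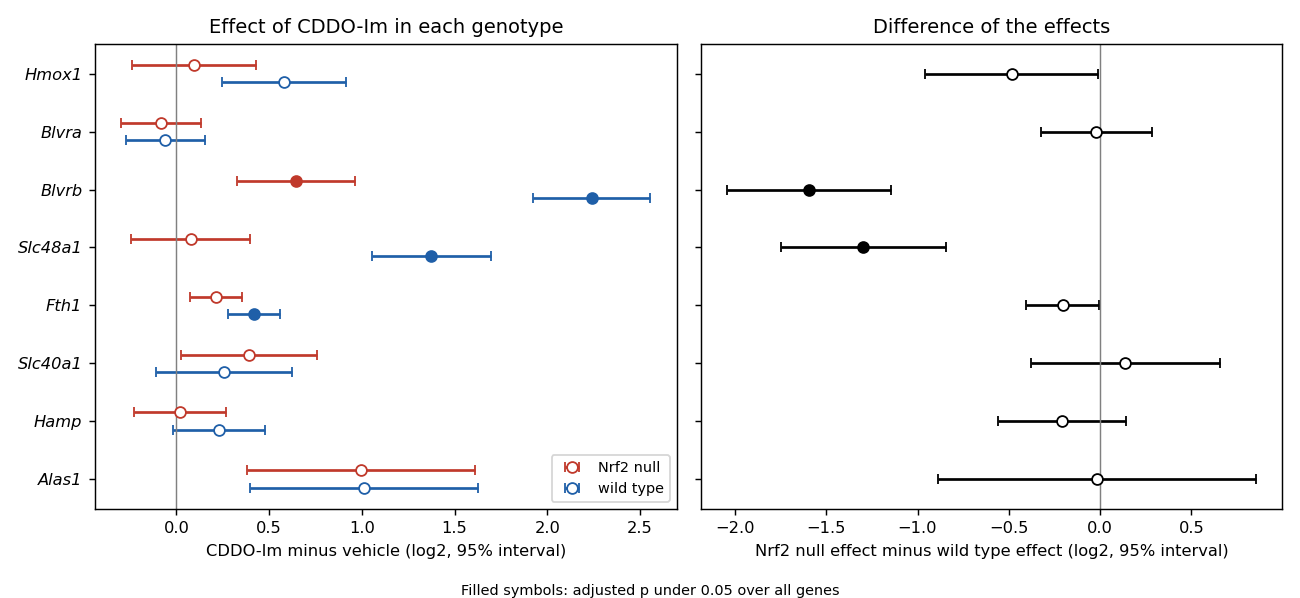
Left, difference between CDDO-Im and vehicle (x axis, log2, with 95% intervals from limma) for the 8 genes in Nrf2 null (red) and wild type (blue) livers; right, Nrf2 null effect minus wild type effect. Filled symbols passed an adjusted p of 0.05: Blvrb in both genotypes, Slc48a1 and Fth1 in wild type, and Blvrb and Slc48a1 for the difference of effects.

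Fth1 (1427021_s_at, Entrez Gene 14319) encodes the ferritin heavy chain, the ferroxidase subunit of the iron storage shell. It read 13.77, 13.80 and 13.82 in Nrf2 null CDDO-Im livers, against 13.53, 13.65 and 13.57 in Nrf2 null vehicle livers. It read 14.04, 14.06 and 14.11 in wild type CDDO-Im livers, against 13.60, 13.62 and 13.73 in wild type vehicle livers. The 2 vehicle groups overlapped, the Nrf2 null CDDO-Im arrays lay above both, and the wild type CDDO-Im arrays lay above all others. Fth1 rose by 0.42 ± 0.0649 in wild type livers (1.34-fold, limma, adjusted p = 0.00706). In Nrf2 null livers the difference was 0.21 (95% interval 0.07 to 0.36) and did not pass (adjusted p = 0.0791). Between genotypes under CDDO-Im it was -0.27 (adjusted p = 0.0668), and the effects differed by -0.21 (adjusted p = 0.695). The difference between genotypes under CDDO-Im passed with array weights, quantile normalization and the mean of both probe sets (adjusted p = 0.0476, 0.0302 and 0.0304), and in none of the 12 single omissions. The wild type call was lost without wild type vehicle replicate 1 (0.40, adjusted p = 0.052) and when only the 6 wild type arrays were fitted (adjusted p = 0.0608). The second probe set (1448771_a_at) rose by 0.46 in wild type livers (adjusted p = 0.00695 over all probe sets). The highest value of any probe set on the 12 arrays was 14.61, and whether differences are compressed this close to it was not tested.

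Slc40a1 (1417061_at, Entrez Gene 53945) encodes ferroportin, the only known exporter of cellular iron in mammals. It read 10.22, 10.96 and 10.65 in Nrf2 null CDDO-Im livers, against 10.07, 10.11 and 10.47 in Nrf2 null vehicle livers. It read 11.08, 11.06 and 10.75 in wild type CDDO-Im livers, against 10.70, 10.75 and 10.68 in wild type vehicle livers. The wild type groups barely separated, and with vehicle every Nrf2 null array lay below every wild type array. The differences for CDDO-Im were 0.39 ± 0.168 in Nrf2 null livers and 0.26 ± 0.168 in wild type livers (limma, adjusted p = 0.22 and 0.591). Nrf2 null against wild type gave -0.35 under CDDO-Im and -0.49 with vehicle (adjusted p = 0.469 and 0.231). Without Nrf2 null CDDO-Im replicate 1 the effect in Nrf2 null livers was 0.59 and passed (adjusted p = 0.0423), and without Nrf2 null CDDO-Im replicate 2 it was 0.22 (adjusted p = 0.545). Under CDDO-Im the difference between genotypes was -0.16 without the first of these arrays. The second probe set (1448566_at) gave 0.32 in Nrf2 null and 0.35 in wild type livers.

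**Figure D3:**
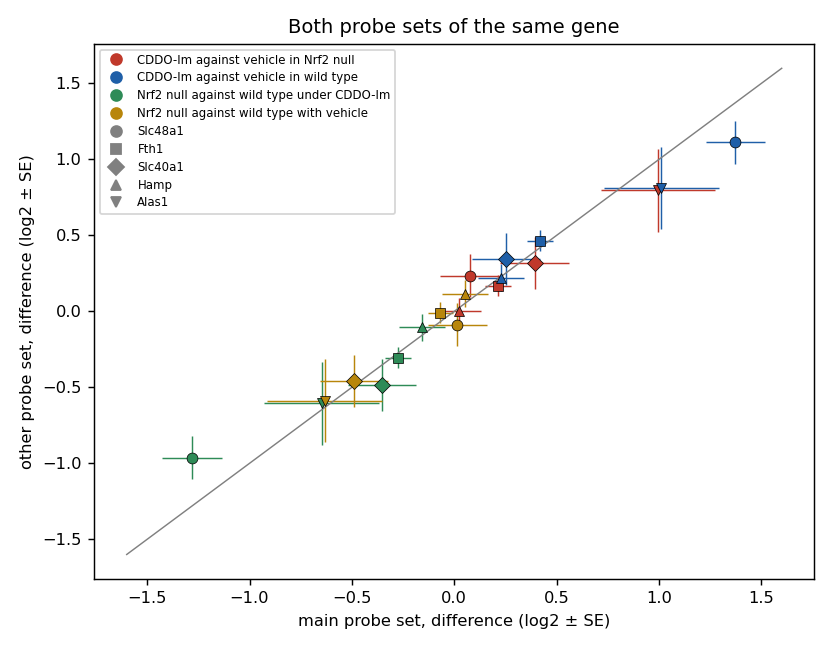
Differences (log2 ± SE) read by the main probe set (x axis) and the other probe set (y axis) of Slc48a1, Fth1, Slc40a1, Hamp and Alas1 in 4 comparisons, with the line of equality. The points lie near the line, with Slc48a1 in wild type at 1.37 by the main and 1.11 by the other probe set.

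Hamp (1419197_x_at, Entrez Gene 84506) encodes hepcidin, which is made by hepatocytes and is known to rise with iron load through BMP and SMAD signalling and with inflammation through STAT3. Hamp read 13.18, 13.52 and 13.47 in Nrf2 null CDDO-Im livers, against 13.31, 13.52 and 13.26 in Nrf2 null vehicle livers. It read 13.46, 13.64 and 13.54 in wild type CDDO-Im livers, against 13.29, 13.49 and 13.17 in wild type vehicle livers. All neighbouring groups overlapped in the order of their means. The difference for CDDO-Im was 0.02 in Nrf2 null livers (95% interval -0.23 to 0.27) and 0.23 in wild type livers (-0.02 to 0.48), and neither passed (limma, adjusted p = 0.951 and 0.414). The second probe set (1419196_at) gave 0.00 in Nrf2 null and 0.22 in wild type livers. By this probe set every wild type CDDO-Im array lay above every wild type vehicle array (95% interval 0.03 to 0.42). That difference did not pass (limma, adjusted p = 0.336 over all probe sets). The suffix of the main probe set marks probes that may also match similar transcripts, as do those of the main Fth1 and the second Alas1 probe sets. Hamp has a close paralog, Hamp2, so its reading is uncertain. The main Hamp2 probe set (1436643_x_at), of the same kind as that of Hamp, gave 0.32 in Nrf2 null and 0.57 in wild type livers (adjusted p = 0.434 and 0.198). Its other probe set (1456289_at) gave -0.25 and -0.03 (adjusted p = 0.198 and 0.957 over all probe sets), so the 2 disagreed in sign and neither was called. Group means of this other probe set were 6.16 to 6.41, near the array medians, against 10.71 to 11.28 for the main Hamp2 probe set.

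The start site of Hamp is shown because some genes that regulate it were called while its own signal passed no test. The 250 bases before it lie on the minus strand at chr7:30944030-30944279 (RefSeq, GRCm38.p6). Capitals mark GGCGCC, the letters of the BMP-responsive element known from the hepcidin promoter, and after it TTCNNNGAA, a STAT site.
Hamp: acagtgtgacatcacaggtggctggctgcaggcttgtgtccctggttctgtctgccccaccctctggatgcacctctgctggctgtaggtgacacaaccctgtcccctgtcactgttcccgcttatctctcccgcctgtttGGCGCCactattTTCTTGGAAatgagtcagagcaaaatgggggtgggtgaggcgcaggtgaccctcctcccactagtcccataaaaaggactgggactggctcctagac

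The GGCGCC letters lie 109 to 104 bases and the STAT letters 97 to 89 bases before the start site of Hamp. Of all 32851 windows, 11.9% held GGCGCC and 8.30% held TTCNNNGAA on either strand. The Hamp2 window held the STAT letters 94 to 86 bases before its start site and no GGCGCC. The window of Alas1 held TTCNNNGAA once, 171 to 163 bases before 1 of its 2 start sites. CAGTGN, the loop letters of an iron-responsive element, occurred on the gene's strand in 34.6% of windows and once among the 8, 249 to 244 bases before the Hamp start site and so outside the transcript.

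Alas1 (1424126_at, Entrez Gene 11655) encodes the housekeeping 5-aminolevulinate synthase. Alas1 read 12.18, 11.67 and 11.56 in Nrf2 null CDDO-Im livers, against 11.02, 10.40 and 10.996 in Nrf2 null vehicle livers. It read 12.08, 12.62 and 12.65 in wild type CDDO-Im livers, against 11.48, 10.84 and 12.003 in wild type vehicle livers. Within each genotype every CDDO-Im array was above every vehicle array, and each group overlapped its neighbour in the order of means. The difference was 0.996 ± 0.282 in Nrf2 null livers (1.99-fold) and 1.01 ± 0.282 in wild type livers (2.02-fold), and neither passed (limma, adjusted p = 0.0614 and 0.101). The effects differed by -0.02, with a 95% interval from -0.89 to 0.85, and values inside that interval cannot be told from 0 here. Without wild type vehicle replicate 3, the array high in acinar markers, the wild type difference was 1.29 and passed (adjusted p = 0.00907). The Nrf2 null difference was then 0.996 as before and passed (adjusted p = 0.0199), and it also passed without wild type vehicle replicate 2 (adjusted p = 0.0296). Nrf2 null against wild type gave -0.65 under CDDO-Im and -0.63 with vehicle (adjusted p = 0.399 and 0.364). The vehicle difference was -0.35 without wild type vehicle replicate 3, -0.43 without Nrf2 null vehicle replicate 2 and -0.15 without both, the 2 arrays high in acinar markers. The difference of effects was -0.50 without both (adjusted p = 0.831). The second probe set (1455282_x_at) gave 0.80 in Nrf2 null and 0.81 in wild type livers.

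Of the 8 genes, 1 was called for CDDO-Im in Nrf2 null livers, where 5.90% of all genes were called. In wild type livers 3 of 8 were called, against 1.82% of all genes. Between genotypes under CDDO-Im 2 of 8 were called, against 1.45%. With vehicle none of 8 was called by limma, against 0.390% of all genes; 3 of the 8 had an unadjusted p under 0.05, and array weights called 2, Blvrb and Slc40a1. For the difference of effects 2 of 8 were called, against 0.137%. These shares rest on single arrays. Over all genes, 1615 were called in Nrf2 null livers without wild type vehicle replicate 3 and 97 without Nrf2 null CDDO-Im replicate 3, against 1074 with all arrays. In wild type livers 1385 were called without wild type vehicle replicate 3 and 104 without wild type vehicle replicate 1, against 332. The groups' arrays did not overlap for 3 of 8 genes with CDDO-Im in Nrf2 null livers and 6 of 8 in wild type livers, against 23.1% and 16.6% of all genes. Between genotypes they did not overlap for 5 of 8 under CDDO-Im and 2 of 8 with vehicle, against 16.8% and 17.0%. The genes were chosen with earlier results of these data known, so these shares describe the genes and test nothing.

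The genes whose values were most like those of Blvrb over the 12 arrays were Gclc (Pearson r = 0.987), Gclm (0.987) and Ces1g (0.986). Gclc and Gclm encode the subunits of glutamate-cysteine ligase. Nearest to Slc48a1 were Ubap1 (0.968), C2cd2 (0.966) and Grina (0.963), and nearest to Fth1 were Creg1 (0.992), Cyp1a2 (0.981) and Gstm6 (0.977). Hmox1 was most like Mafg (0.924), Mcm7 (0.918) and Ube2k (0.905). For Alas1 the nearest were Clip1 (0.935), Lpin2 (0.923) and B2m (0.919), and for Slc40a1 they were Uchl5 (0.941), Rcc2 (0.938) and Snhg8 (0.936). Hamp was nearest to Psg16 (0.935), Rexo4 (0.861) and Mindy1 (0.855), and Blvra to Fbxo25 (0.876), Tspan14 (0.872) and Akap10 (0.871). These are descriptions over 12 arrays that share the 4 groups, so any genes that follow the groups correlate.

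The other genes of the pathway were read from 7 lists. For the counts below, 5.90% of all genes were called with CDDO-Im in Nrf2 null livers and 1.82% in wild type livers. With all arrays, only Blvrb and Slc48a1 of these lists were called for the difference of effects. A call in 1 genotype alone therefore does not show that the effects differed. None of the 10 measured genes of heme synthesis was called in any comparison by limma. Their median difference with CDDO-Im was 0.12 in Nrf2 null and 0.05 in wild type livers, against -0.00 and 0.01 over all genes. After Alas1, Alas2, the erythroid form, had the next largest difference in both genotypes, 0.52 and 0.34, and Fech, which inserts iron into heme, gave 0.28 and 0.16.

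Among 13 genes of heme breakdown, uptake and export, 2 rose and 1 fell with CDDO-Im in Nrf2 null livers, and 3 rose and 1 fell in wild type livers. The list medians were -0.08 and -0.05. Abcg2, an efflux pump that carries heme and porphyrins, rose by 1.06 in wild type livers (adjusted p = 0.0123), where it read 10.39, 10.35 and 10.32 against 9.24, 8.89 and 9.76 with vehicle. In Nrf2 null livers Abcg2 gave 0.64 (adjusted p = 0.0607). Hebp1, a heme-binding protein, rose by 0.71 in Nrf2 null livers and gave 0.37 in wild type livers (adjusted p = 0.0399 and 0.396). Hp, the plasma scavenger of hemoglobin, fell by 0.33 in Nrf2 null and by 0.46 in wild type livers (adjusted p = 0.0488 and 0.0233). Hmox2, the constitutive heme oxygenase, gave 0.14 and 0.02, and Hpx, the plasma scavenger of heme, gave -0.20 and -0.30, and neither gene was called. Single omissions ended the calls of Abcg2 in 2 of 12 cases (adjusted p up to 0.0694, without wild type vehicle replicate 1), of Hebp1 in 10 (up to 0.151, without Nrf2 null vehicle replicate 1) and of Hp in 10 for Nrf2 null and 4 for wild type livers (up to 0.164 without Nrf2 null CDDO-Im replicate 2 and 0.136 without wild type vehicle replicate 1).

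Of 5 measured genes for uptake and export of bilirubin, 2 rose in each genotype and none fell, with medians of 0.36 in Nrf2 null and 0.57 in wild type livers. Abcc3, a pump of the hepatocyte's sinusoidal membrane that returns bilirubin conjugates to blood, read 7.24, 7.46 and 7.72 in Nrf2 null CDDO-Im livers, against 7.23, 6.97 and 7.26 in Nrf2 null vehicle livers. It read 11.38, 12.02 and 12.09 in wild type CDDO-Im livers, against 8.58, 8.10 and 9.86 in wild type vehicle livers. It rose by 2.98 in wild type livers (adjusted p = 0.000941) and was lower by 4.36 in Nrf2 null than in wild type livers under CDDO-Im (adjusted p = 4.85e-05). Its effects in the genotypes differed by -2.66, which did not pass (adjusted p = 0.118). Without wild type vehicle replicate 3 (9.86) the difference of effects was -3.17 and passed (adjusted p = 0.000314). Abcc2, the canalicular pump for conjugated bilirubin, rose by 0.81 in wild type livers and gave 0.36 in Nrf2 null livers (adjusted p = 0.0145 and 0.182). Slco1b2 and Slco1a1, sinusoidal uptake carriers for organic anions, rose by 0.62 and 1.14 in Nrf2 null livers (adjusted p = 0.0242 and 0.00958). In wild type livers these carriers gave 0.35 and 0.57 (adjusted p = 0.268 and 0.162). With vehicle, every Nrf2 null array of both carriers lay below every wild type array. Those differences were -0.55 and -0.80 and did not pass (limma, adjusted p = 0.115 and 0.0939). Under CDDO-Im the differences between genotypes were -0.28 and -0.235 (limma, adjusted p = 0.484 and 0.758). The Abcc3 calls held with any 1 array left out. Those of Abcc2 and Slco1b2 were lost in 4 of 12 single omissions each (adjusted p up to 0.0793 without wild type vehicle replicate 2 and 0.101 without Nrf2 null CDDO-Im replicate 3), and that of Slco1a1 in 1 (0.0526, without Nrf2 null CDDO-Im replicate 3).

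Among 16 measured genes of iron storage, uptake and export, 1 rose and 1 fell in Nrf2 null livers, and 2 rose and 1 fell in wild type livers, with medians of 0.05 and 0.08. Tfrc, the transferrin receptor that brings iron into cells, read 9.41, 7.90 and 8.41 in Nrf2 null CDDO-Im livers, against 8.41, 8.77 and 7.91 in Nrf2 null vehicle livers. It read 9.67, 10.08 and 9.94 in wild type CDDO-Im livers, against 7.31, 7.58 and 8.08 in wild type vehicle livers. Tfrc rose by 2.24 ± 0.336 in wild type livers (adjusted p = 0.00591, with every single omission at 0.0375 or below). In Nrf2 null livers the difference was 0.21 (adjusted p = 0.813), and the effects differed by -2.03, which did not pass (adjusted p = 0.231). In wild type livers Tfrc and Fth1 thus rose together, and the second transferrin receptor, Tfr2, fell by 0.44 (adjusted p = 0.0221). In Nrf2 null livers Tfr2 gave -0.01 (adjusted p = 0.957). There Pcbp2, an iron chaperone, rose by 0.71 (adjusted p = 0.0171), and Slc11a2, the DMT1 iron transporter, fell by 0.65 (adjusted p = 0.0314). Pcbp2 and Slc11a2 gave 0.44 and -0.28 in wild type livers (adjusted p = 0.163 and 0.475). The calls of Tfr2, Pcbp2 and Slc11a2 were lost in 4, 3 and 6 of 12 single omissions (adjusted p up to 0.132 without wild type vehicle replicate 1, 0.0774 without Nrf2 null vehicle replicate 1 and 0.102 without Nrf2 null CDDO-Im replicate 2).

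Among 10 measured genes of iron sensing and mitochondrial iron, 2 rose and 1 fell in Nrf2 null livers and 1 rose in wild type livers, with medians of 0.14 and 0.05. Nfs1, the cysteine desulfurase of iron-sulfur cluster assembly, rose by 0.48 and Cisd1, an outer membrane iron-sulfur protein, by 0.78 in Nrf2 null livers, where Bola2, a cytosolic cluster protein, fell by 0.64 (adjusted p = 0.0364, 0.0252 and 0.011). Nfs1, Cisd1 and Bola2 gave 0.09, 0.31 and -0.29 in wild type livers (adjusted p = 0.835, 0.489 and 0.261). Glrx5, a mitochondrial cluster carrier, rose by 0.63 in wild type livers and gave 0.38 in Nrf2 null livers (adjusted p = 0.0195 and 0.0769). Slc25a37, the mitochondrial iron importer mitoferrin 1, was lower by 1.26 in Nrf2 null than in wild type livers under CDDO-Im (adjusted p = 0.00484), a call that held in all 12 single omissions. The calls of Nfs1, Cisd1, Bola2 and Glrx5 were lost in 6, 5, 1 and 4 of them, with the highest adjusted p at 0.132 and 0.104 without Nrf2 null vehicle replicate 1, 0.0546 without Nrf2 null CDDO-Im replicate 3 and 0.0994 without wild type vehicle replicate 2.

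**Figure D4:**
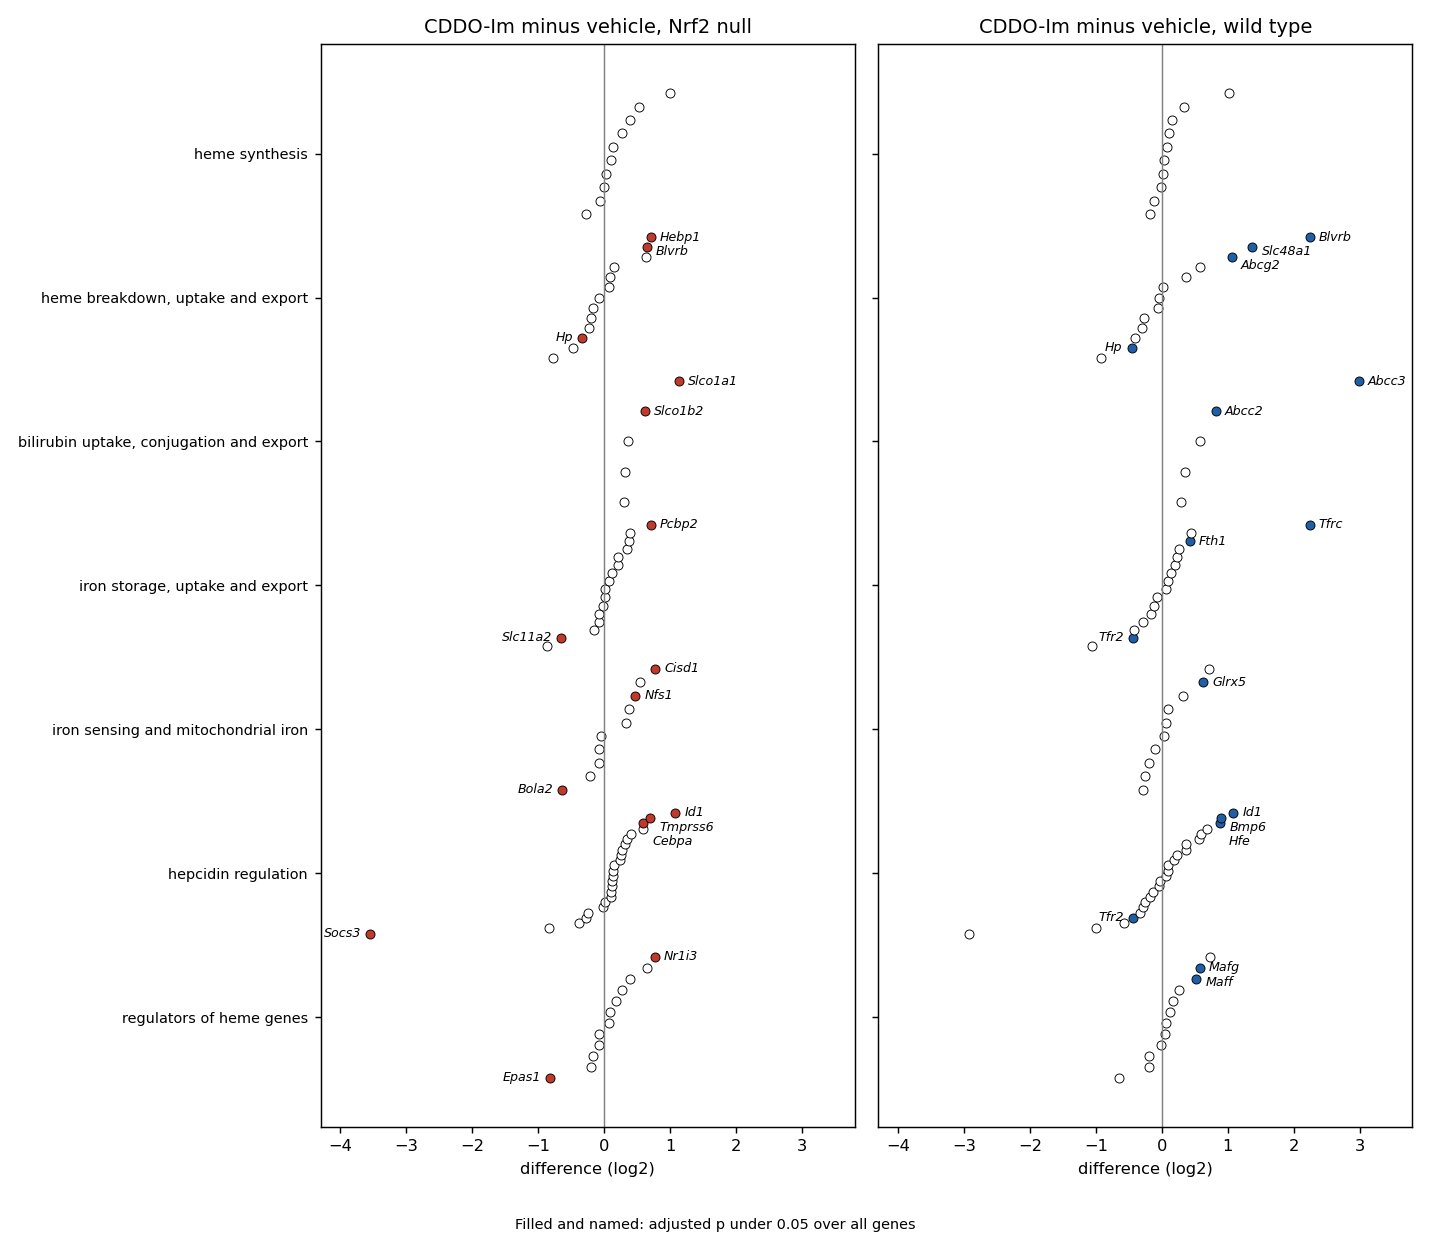
Difference between CDDO-Im and vehicle (x axis, log2) for each measured gene of 7 heme and iron lists (rows) in Nrf2 null (left) and wild type (right) livers; 1 point is 1 gene, and filled, named points passed an adjusted p of 0.05. Abcc3, Tfrc and Blvrb lie farthest to the right in wild type livers, at 2.98, 2.24 and 2.24, and Socs3 farthest to the left in Nrf2 null livers, at -3.55.

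Of 24 genes of hepcidin regulation, 3 rose and 1 fell in each genotype, with medians of 0.13 in Nrf2 null and 0.08 in wild type livers. Id1, a target of BMP and SMAD signalling, rose by 1.08 in both (adjusted p = 0.0168 and 0.0258), and its effects differed by -0.00 ± 0.302. It read 8.59, 8.71 and 9.18 in Nrf2 null CDDO-Im livers, against 7.64, 7.74 and 7.85 in Nrf2 null vehicle livers. It read 8.21, 9.09 and 8.66 in wild type CDDO-Im livers, against 7.73, 7.26 and 7.73 in wild type vehicle livers. Bmp6, the ligand that signals iron load to hepatocytes, and Hfe, the hemochromatosis protein, rose by 0.90 and 0.88 in wild type livers (adjusted p = 0.00968 and 0.000309). In Nrf2 null livers they gave 0.41 and 0.25 (adjusted p = 0.137 and 0.136). Both were lower in Nrf2 null than in wild type livers under CDDO-Im, by 0.78 and 0.82 (adjusted p = 0.0228 and 0.000535). Their effects differed by -0.49 and -0.63, and neither difference passed (adjusted p = 0.668 and 0.155). Bmp6 read 5.31 to 6.18 on the 6 vehicle arrays, around the array medians, and its signal was not set against background. Bmp6 is known to come from sinusoidal endothelial cells. The 7 markers of those cells averaged 7.64 to 7.67 in Nrf2 null CDDO-Im arrays, 7.24 to 7.75 in Nrf2 null vehicle arrays, 7.73 to 7.82 in wild type CDDO-Im arrays and 7.43 to 7.65 in wild type vehicle arrays. The median difference of these markers with CDDO-Im was 0.09 in Nrf2 null and 0.06 in wild type livers. Between genotypes under CDDO-Im their median was -0.04. Of these 7, Lyve1, a hyaluronan receptor, rose in wild type livers, by 2.26 (adjusted p = 0.0013), and was lower by 1.92 in Nrf2 null than in wild type livers under CDDO-Im (adjusted p = 0.00412). The part of these cells in the Bmp6 values was not tested.

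Tmprss6, a protease that restrains hepcidin, rose by 0.70 in Nrf2 null livers and gave 0.69 in wild type livers (adjusted p = 0.0334 and 0.0641), or 0.87 with a call in wild type without wild type vehicle replicate 3 (adjusted p = 0.00341). Cebpa, a hepatocyte transcription factor that drives hepcidin, rose by 0.59 in Nrf2 null livers and gave 0.06 in wild type livers (adjusted p = 0.0405 and 0.932). Socs3, a target and inhibitor of STAT3 signalling, fell by 3.55 in Nrf2 null livers (adjusted p = 0.032) and gave -2.93 in wild type livers (adjusted p = 0.112), or -4.19 with a call (adjusted p = 0.000159) without wild type vehicle replicate 3. The effects differed by -0.62 with that array and by 0.64 without it, and neither passed (adjusted p = 0.964 and 0.826). Socs3 read 8.60, 7.06 and 6.45 in Nrf2 null CDDO-Im livers, against 11.11, 11.07 and 10.56 in Nrf2 null vehicle livers. It read 5.88, 6.15 and 6.39 in wild type CDDO-Im livers, against 10.07, 10.59 and 6.56 in wild type vehicle livers, where the low value is replicate 3. The Hfe calls held in all 12 single omissions, and in wild type Bmp6 was lost in 2 (up to 0.0541, without wild type vehicle replicate 2). Id1 was lost in 4 in each genotype (up to 0.0739 without Nrf2 null CDDO-Im replicate 3 and 0.129 without wild type vehicle replicate 2). Tmprss6, Cebpa and Socs3 were lost in 5, 7 and 5 (up to 0.134, 0.159 and 0.131, each without Nrf2 null CDDO-Im replicate 3), and Bmp6 between genotypes was lost in 6 omissions (up to 0.0976, without Nrf2 null CDDO-Im replicate 1).

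Of 15 acute phase markers, which share STAT3 with hepcidin as a known regulator, 9 fell in Nrf2 null livers and 7 in wild type livers, and none rose. Their medians were -1.14 and -1.27. Lbp fell by 1.14 and 1.27 and Fgg by 0.40 and 0.54 (adjusted p = 0.0113 and 0.00797 for Lbp, 0.0187 and 0.00678 for Fgg). Saa3 fell by 2.84 and Serpina3n by 1.52 in Nrf2 null livers (adjusted p = 0.0103 and 0.0115). In wild type livers they fell by 2.17 and 1.27 (adjusted p = 0.041 and 0.0399). Itih4 fell by 0.82 and Fgb by 0.67 in wild type livers (adjusted p = 0.00917 and 0.0148). In Nrf2 null livers these fell by 0.61 and 0.46 (adjusted p = 0.0232 and 0.0416). The mean of the 15 markers was 11.05 to 12.53 in Nrf2 null CDDO-Im arrays, against 13.18 to 13.22 in Nrf2 null vehicle arrays, and 10.33 to 11.40 in wild type CDDO-Im arrays, against 12.14 to 13.09 in wild type vehicle arrays. Hamp passed no test in the same arrays, with the intervals given above. Of these calls, Fgg in wild type held in all 12 single omissions. Without Nrf2 null CDDO-Im replicate 3, Saa3, Lbp and Serpina3n in Nrf2 null livers stood at 0.0546, 0.0557 and 0.0567. Without wild type vehicle replicate 1, Lbp, Itih4 and Fgb in wild type livers stood at 0.0527, 0.0599 and 0.0933, and without Nrf2 null vehicle replicate 1, Fgg in Nrf2 null livers stood at 0.0764.

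**Figure D5:**
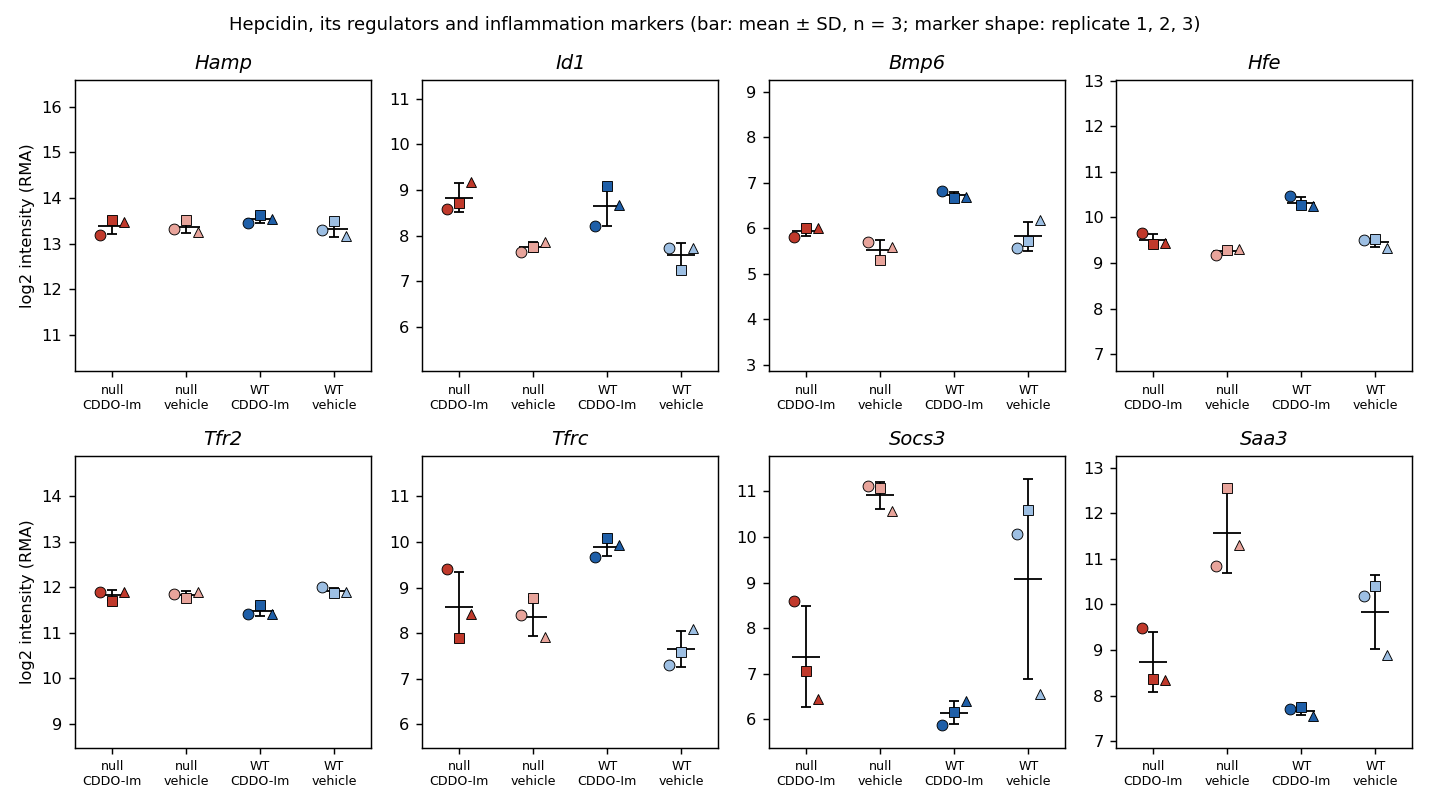
Log2 intensity (y axis, the same span in every panel) of Hamp, of Id1, Bmp6, Hfe and Tfr2 from the hepcidin regulation list, and of Tfrc, Socs3 and the acute phase gene Saa3, on each array of the 4 groups (x axis); bars are mean ± SD (n = 3). Socs3 and Saa3 are low in both CDDO-Im groups, with wild type vehicle replicate 3 at 6.56 for Socs3, while the groups of Hamp overlap by its main probe set, the one shown.

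Of 12 regulators of heme genes, 1 rose and 1 fell in Nrf2 null livers and 2 rose in wild type livers, with medians of 0.08 and 0.09. Mafg and Maff, small Maf proteins that pair with Nrf2 or Bach1 on DNA, rose by 0.58 and 0.52 in wild type livers (adjusted p = 0.0244 and 0.0367). In Nrf2 null livers they gave 0.07 and 0.40 (adjusted p = 0.802 and 0.0543). Mafg was lower by 0.52 in Nrf2 null than in wild type livers under CDDO-Im (adjusted p = 0.0453). In Nrf2 null livers Nr1i3, the receptor CAR, known to induce Alas1, rose by 0.77 (adjusted p = 0.0264), and Epas1, which encodes HIF-2 alpha, fell by 0.82 (adjusted p = 0.049). In wild type livers Nr1i3 gave 0.73 (adjusted p = 0.0589), or 0.91 with a call without wild type vehicle replicate 3 (adjusted p = 0.00374). Epas1 gave -0.65 in wild type livers (adjusted p = 0.182). Bach1, the heme-sensing repressor of Hmox1, gave -0.17 in Nrf2 null and 0.05 in wild type livers and was not called. Single omissions ended the Mafg calls in 4 of 12 cases in wild type (up to 0.0984, without wild type CDDO-Im replicate 2) and 8 between genotypes (up to 0.164, without the same array). Those of Maff, Nr1i3 and Epas1 ended in 7, 4 and 9 cases, up to 0.184 without wild type vehicle replicate 1, 0.114 without Nrf2 null CDDO-Im replicate 3 and 0.144 without Nrf2 null CDDO-Im replicate 2.

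With vehicle, Nfe2l2 was the only gene of the 7 lists called between genotypes, and 4 were called without wild type vehicle replicate 2 or 3. The 7 lists held 10, 13, 5, 16, 10, 24 and 12 measured genes, with Tfr2 in both the iron storage and the hepcidin list. With CDDO-Im, 5.90% of all genes were called in Nrf2 null livers and 1.82% in wild type livers. Over these lists 16 genes were called with CDDO-Im in Nrf2 null livers and 15 in wild type livers, the 8 genes included where listed. These counts rest on single arrays: without Nrf2 null CDDO-Im replicates 2 or 3, or Nrf2 null vehicle replicates 1 or 2, the first was 3, 0, 2 and 3, and without wild type vehicle replicate 3 it was 27. Without wild type CDDO-Im replicate 2 or wild type vehicle replicates 1 or 2, the second was 9, 5 and 7, and without wild type vehicle replicate 3 it was 32.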

How the data were processed

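Biotin-labelled total RNA of 12 liver samples was read on Affymetrix arrays. The authors deposited 1 log2 value per probe set and array, made with RMA per the submitters' processing notes, whose version is not given in the sources used here. The deposited log2 values were used as they stood, with no filter on low signal. The table held 45101 probe sets, 64 of them controls, without missing values. Of the others 34945 named 1 gene, 932 several and 9160 none, and only those naming 1 gene were used, by GEO's platform annotation. The brightest probe set over all arrays stood for a gene, which left 18193 genes.

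A model with 1 mean for each of 4 groups was fitted in R 4.3.3 by limma 3.58.1, which drew on statmod 1.5.0. A two-sided moderated test served for 5 comparisons, each adjusted over all genes by Benjamini-Hochberg. The interaction is the Nrf2 null effect of CDDO-Im minus the wild type effect. The prior had 3.81 and the residual 8 degrees of freedom. Alternatives were single arrays left out, both arrays with acinar transcripts left out, a replicate block, array weights, the compared arrays alone, quantile normalization, median centring, a filter on low genes, other uses of the probe sets, a trended prior and a threshold of 0.01.

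The 8 genes, the lists and the alternatives were chosen with earlier results of these data known. Genes named beside the 8 were those called in a list (at most 4 with the smallest adjusted p in a comparison), the 3 with the highest correlation for each of the 8, and Nfe2l2. Other values of listed genes (Alas2, Fech, Hmox2, Hpx, Bach1) were added for their role after their values were seen. Ugt1a1, Ftl1 and Trf were not analysed here. Same-numbered replicates did not deviate together (18 pairs, correlation of deviations -0.30 to 0.28, 4 above 0.1), so the numbers were not taken to pair samples. Motifs were searched in RefSeq windows of GRCm38.p6, from 250 bases before to 50 after a start site.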

Additional observations from a re-analysis of the deposited data

Results flagged for a closer look

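The effect of CDDO-Im on Blvrb differed between the genotypes by the interaction test, at -1.60 on the log2 scale (Nrf2 null effect minus wild type effect, limma, adjusted p = 0.00775), with an effect of 0.64 in Nrf2 null and 2.24 in wild type livers. The effect on Slc48a1 differed by -1.30 (adjusted p = 0.0364), with 0.08 in Nrf2 null and 1.37 in wild type livers, and this call was lost in 8 of 12 single omissions.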

How the results depend on the processing

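Of 937 differences recomputed for the 8 genes, 865 kept their direction and their side of the threshold, 20 lost a call, 18 gained one and 34 changed sign. Many of the 937 could not change in size or sign. Leaving out an array outside a comparison, or changing only the threshold, the prior or the genes tested, returns the same difference. The tally therefore does not measure how stable the differences are. In each passage below, comparisons come in the order CDDO-Im in Nrf2 null, CDDO-Im in wild type, genotypes under CDDO-Im, genotypes with vehicle, interaction. With single arrays left out, called genes among the 8 ranged over 0 to 2, 2 to 4, 2 to 3, 0 to 1 and 1 to 2. All genes called ranged over 97 to 1615, 104 to 1385, 151 to 464, 19 to 219 and 15 to 46. List genes called ranged over 0 to 27, 5 to 32, 6 to 10, 1 to 4 and 1 to 3.

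Array weights gave 2, 5 and 2 called among the 8 (Nrf2 null, wild type and vehicle), 1897, 2023, 1477 and 89 genes in all (Nrf2 null, wild type, vehicle and interaction) and 28, 41, 17 and 6 list genes. The compared arrays alone gave 2 among the 8 in Nrf2 null, 110 genes in wild type and 18 with vehicle, and 6 list genes in wild type. The filter on low genes gave 2 among the 8 in Nrf2 null. A threshold of 0.01 gave 0 among the 8 in Nrf2 null and 1 for the interaction, 97, 109, 123, 16 and 15 genes, and 1, 7 and 1 list genes (Nrf2 null, wild type and interaction). Without both acinar-high arrays 1293, 411, 117 and 39 genes were called (from wild type on), 29 list genes in wild type, and 1 of the 8 for the interaction. Testing every probe set called 549, 467 and 57 (wild type, genotypes under CDDO-Im, interaction). Median centring called 40 genes with vehicle, and it and the mean of a gene's probe sets each left 1 of the 8, and 1 list gene, for the interaction.

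Reversed values belonged to differences that passed no test. For Hamp they were -0.017 (array weights, Nrf2 null) and -0.10 (vehicle, without the acinar-high arrays). For Slc48a1 with vehicle they were -0.0019 (median centring), -0.036 (mean of probe sets) and -0.087 (second probe set). The interaction of Blvra was 0.019 without the acinar-high arrays, 0.014 with array weights and 0.0059 with median centring. That of Alas1 was 0.053 with array weights and 0.013 with median centring, and that of Slc40a1 -0.026 by the second probe set. With single arrays left out, differences that crossed 0 ranged from -0.19 to 0.016 for Blvra, -0.10 to 0.24 for Slc48a1 and -0.045 to 0.13 for Hamp in Nrf2 null. With vehicle they ranged from -0.14 to 0.19 for Slc48a1 and -0.027 to 0.14 for Hamp. For the interaction they ranged from -0.13 to 0.075 for Blvra, -0.037 to 0.33 for Slc40a1 and -0.30 to 0.29 for Alas1. The cause of these changes was not tested.

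With the replicate number as a block, the 8 genes gave 1, 3, 2, 0 and 2 calls, as without it, all genes gave 1000, 323, 231, 80 and 20, and the list genes called with vehicle were 2 in place of 1. Signal over background was not used, so what it limits for low readings such as Bmp6 was not tested.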
